A study of Mus musculus with 14 samples.

Results

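Immature thymocytes lacking Ezh2 were compared with immature thymocytes lacking p53, at 3 matched stages and on 1 microarray slide. The comparison used 6 of the 14 arrays of the series: 1 array each of DN1, DN2 and DN3 cells from Ezh2Δ/Δ (Ezh2-deleted) and from p53Δ/Δ (p53-deleted) animals. The arrays were chosen by genotype and slide, and genes of chromosomes X and Y were left out. Donor marrow carried Cre-ERT2, a Cre recombinase switched on by a drug, with loxP-flanked ("flox") alleles of Ezh2 or of the p53 gene Trp53. It was grafted into CD45.1+ wild-type hosts whose own blood system had been destroyed by irradiation. The genes were deleted 4 weeks after transplantation, and cells were sorted at 3 months. The strain was C57BL/6, and no sample in the comparison carried leukemia. The 2 other genotypes served as reference levels: WT cells with Cre-ERT2 and no flox allele, and double-deleted Ezh2Δ/Δp53Δ/Δ cells, each also with 1 array per stage, on other slides. The series text gives the thymus as the tissue, while the sorting protocol in the sample labels names bone marrow cells. The labels do not say how many mice a sample pooled, or whether the stages of a genotype came from different mice. Unless given for the 6 arrays alone, the p-values below measure agreement across the 3 stages pooled over all genotypes, reference ones included. None measures the spread between mice.

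DN ("double-negative") thymocytes carry neither CD4 nor CD8. DN1 cells (CD44+CD25-) are the earliest and hold progenitors that can still make other lineages, DN2 cells (CD44+CD25+) are specifying the T lineage, and DN3 cells (CD44-CD25+) are committed T precursors that rearrange the T cell receptor beta locus. Ezh2 is the catalytic subunit of Polycomb repressive complex 2 (PRC2), which methylates lysine in the tail of histone H3 and keeps developmental genes, Hox clusters and the Cdkn2a-Cdkn2b locus silent. p53 is a transcription factor that answers DNA damage and oncogenic stress by switching on genes for cell cycle arrest and cell death. The Cdkn2a locus feeds into the p53 pathway, since its product p19Arf blocks the p53 inhibitor Mdm2, and its other product p16Ink4a inhibits the cyclin D kinases.

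The promoters of 4 genes around which the comparison turned are shown to make their CG content visible, since PRC2 is known to settle on promoters rich in CG dinucleotides. Each is the stretch from 250 bases before to 50 bases after the RefSeq gene start on build GRCm38.p6, 5′ to 3′ along the gene's own strand, with every CG in capitals.
Hoxa7, chr6:52218524-52218823, minus strand: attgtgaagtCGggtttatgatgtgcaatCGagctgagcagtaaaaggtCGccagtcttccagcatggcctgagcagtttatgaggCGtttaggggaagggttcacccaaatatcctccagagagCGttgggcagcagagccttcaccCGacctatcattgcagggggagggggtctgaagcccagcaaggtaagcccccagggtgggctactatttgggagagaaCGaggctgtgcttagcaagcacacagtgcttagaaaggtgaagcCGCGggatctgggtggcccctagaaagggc
Bcl11a, chr11:24080445-24080744, plus strand: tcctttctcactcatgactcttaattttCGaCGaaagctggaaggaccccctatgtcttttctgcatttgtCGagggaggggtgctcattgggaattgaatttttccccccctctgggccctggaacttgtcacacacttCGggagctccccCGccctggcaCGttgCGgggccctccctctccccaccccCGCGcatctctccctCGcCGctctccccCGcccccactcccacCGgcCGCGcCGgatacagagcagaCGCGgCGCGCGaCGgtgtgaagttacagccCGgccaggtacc
Cdkn2a, chr4:89294570-89294869, minus strand: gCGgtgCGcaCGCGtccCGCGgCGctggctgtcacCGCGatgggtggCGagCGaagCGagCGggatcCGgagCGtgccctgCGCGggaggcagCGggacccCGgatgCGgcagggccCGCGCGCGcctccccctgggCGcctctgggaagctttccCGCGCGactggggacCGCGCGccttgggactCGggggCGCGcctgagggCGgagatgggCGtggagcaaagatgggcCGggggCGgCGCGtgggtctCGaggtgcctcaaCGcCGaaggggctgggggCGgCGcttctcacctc
Cdkn2b, chr4:89310983-89311282, minus strand: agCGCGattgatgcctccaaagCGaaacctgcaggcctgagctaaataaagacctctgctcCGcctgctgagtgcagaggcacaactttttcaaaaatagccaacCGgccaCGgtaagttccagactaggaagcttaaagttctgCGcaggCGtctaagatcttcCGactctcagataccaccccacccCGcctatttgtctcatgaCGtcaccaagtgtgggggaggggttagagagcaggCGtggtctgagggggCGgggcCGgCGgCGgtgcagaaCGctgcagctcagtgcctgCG
The Hoxa7 stretch held 9 CG dinucleotides, Bcl11a 23, Cdkn2a 45 and Cdkn2b 18. The median was 7 over all 27025 promoters in the table and 20 over the promoters of the named genes tested, so Hoxa7 and Cdkn2b lay above the first and below the other. The gene with the sparsest of the 4 stretches (Hoxa7) and one with more than 20 CG (Bcl11a) were both higher in Ezh2-deleted cells, and the densest (Cdkn2a) was lower there.

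The data were 1-colour intensities from Agilent arrays hybridised with RNA amplified from 20 ng per sample. A level is the log2 of a probe's processed signal relative to the array's 75th percentile, so 0 is a fairly bright probe, and each unit is a doubling of signal. Signal was well above background for 40.3% to 45.6% of the probes of each array, and none was saturated. The 75th percentile signal ran from 70.5 to 141 across them, against 299 to 589 on the WT and double-deleted arrays. A difference is the Ezh2-deleted minus the p53-deleted level, averaged over the stages. Where no array of a genotype rose well above background, the fold is a lower bound, taken against the dimmest detectable signal or the probe's own. The T lineage genes Thy1, Cd3e, Cd3g, Ptprc, Bcl11b and Tcf7 were above background on all 6 arrays. Il2ra, which encodes CD25, stood at 2.12, 7.54 and 7.21 in Ezh2-deleted DN1, DN2 and DN3 cells and at 0.71, 5.19 and 5.21 in p53-deleted cells, low in DN1 of both genotypes as the gates require. Cd44 fell from 3.57 at DN1 to -2.21 at DN3 in the Ezh2-deleted arrays and from 2.66 to -2.06 in the p53-deleted arrays.

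Genes that mark sex separated the 2 genotypes. Xist, a long non-coding RNA made by the inactive X chromosome of females, stood at 1.54, 1.98 and 2.37 in Ezh2-deleted cells while its signal in p53-deleted, WT and double-deleted cells was at background. Ddx3y, Eif2s3y and Uty, genes of the Y chromosome, were detected in p53-deleted cells and not in Ezh2-deleted cells. Sex and genotype cannot be told apart for any autosomal gene of the comparison. Nor can the place on the slide: the Ezh2-deleted arrays took positions up to row 2 column 1, and the p53-deleted arrays row 2 columns 2 to 4.

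The deleted genes were examined first. Trp53 stood at 0.45, 1.48 and 1.04 in Ezh2-deleted DN1, DN2 and DN3 cells. In p53-deleted cells it was not well above background at any stage, with readings of -3.70, -5.58 and -5.05. The groups were far apart and went with the labels. The difference was 5.77 ± 0.69 (SE, limma over 12 arrays, adjusted p = 0.0023), at least 23.8-fold. Ezh2 stood at 2.55, 3.69 and 3.52 in Ezh2-deleted cells and at 3.41, 3.14 and 3.67 in p53-deleted cells. The groups overlapped, and the difference was -0.15 ± 0.38 (limma, adjusted p = 0.867). The sources used here do not say whether the Ezh2 probe lies in the deleted part of the gene, so this probe checks no label.

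Across 14482 autosomal features tested (12226 named genes and 2256 genome regions), 595 were higher in Ezh2-deleted cells (4.11%) and 303 were lower (2.09%) at an adjusted p under 0.05. Named genes made up 556 of the higher and 231 of the lower features. Fold sizes were large: the median among named genes was 3.85-fold for the higher and 4.11-fold for the lower, and 40 and 17 of them passed 16-fold. In 112 of the higher genes the p53-deleted arrays showed nothing well above background, and in 86 of the lower genes the Ezh2-deleted arrays did so. The genotypes did not overlap in 804 of the 898 called features, where 21.2% of all features tested did not overlap. The number of calls rested on the spread taken from 12 arrays: with the 6 arrays of the slide alone, which leave 2 residual degrees of freedom in place of 6, 75 features were higher and 28 lower (0.711% called either way), and 102 of these 103 were among the 898. Leaving out 1 array also moved the counts by over 1.5 times: 214 higher and 104 lower without the Ezh2-deleted DN2 array, 238 and 163 without Ezh2-deleted DN3, 309 and 121 without p53-deleted DN3, and 176 lower without Ezh2-deleted DN1.

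Hoxa7, a homeobox gene of the Hoxa cluster that is active in blood progenitors, was higher in Ezh2-deleted cells. It stood at -0.27, 1.76 and 1.35 in Ezh2-deleted DN1, DN2 and DN3 cells and at -4.19, -2.17 and -2.46 in p53-deleted cells. Both genotypes were lowest at DN1, and the same-stage differences were 3.92, 3.93 and 3.81. The difference was 3.89 ± 0.35 (limma, adjusted p = 0.00083; 0.0307 with the 6 arrays alone). In WT cells Hoxa7 averaged 2.06 and in double-deleted cells it stood at 1.58, 1.89 and 2.55, so the p53-deleted arrays were the ones that stood apart from the other 9. Hoxa3, another gene of the cluster, was at least 2.07-fold higher, and its call was lost without the Ezh2-deleted DN3 or the p53-deleted DN3 array (adjusted p up to 0.0888). Hoxa4 (at least 1.62-fold higher) and Hoxa9 (0.11) were not called. None of the 3 testable genes of the other Hox clusters was called.

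Bcl11a, a zinc finger repressor of early lymphoid progenitors that is silenced as T cells commit, was higher in Ezh2-deleted cells by 4.22 ± 0.41 (limma, adjusted p = 0.00122; 0.0307 with the 6 arrays alone). It ran from 0.55 to 1.55 in Ezh2-deleted cells and stood at -2.74, -3.38 and -3.25 in p53-deleted DN1, DN2 and DN3 samples. The 2 genotypes were separated by more than the spread within either. WT cells averaged 1.13 and double-deleted cells -0.03, both near the Ezh2-deleted level. Bcl11a was 1 of 6 progenitor and T-ALL transcription factors called higher among 19 tested, with none lower (31.6%, against 6.2% of all features). The list's median difference was 0.98, where the median over all features was 0.07. Lmo1, a LIM-domain partner of Tal1 in T cell leukemia, stood at -1.49, 0.16 and -0.86 in Ezh2-deleted cells and was undetected in p53-deleted cells, meaning not well above background at any stage, a difference of at least 7.22-fold (limma, adjusted p = 0.00619). Tal1 itself (2.77), Erg (3.34), Mycn (2.22) and Sox13 (1.70) were the other 4. The call was lost without 1 array for each of these: without any of 5 arrays for Tal1 and Sox13, without any Ezh2-deleted array for Mycn, and without Ezh2-deleted DN2 for Erg, with adjusted p up to 0.194. Erg lies on chromosome 16, whose genes are taken up below.

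**Figure D1:**
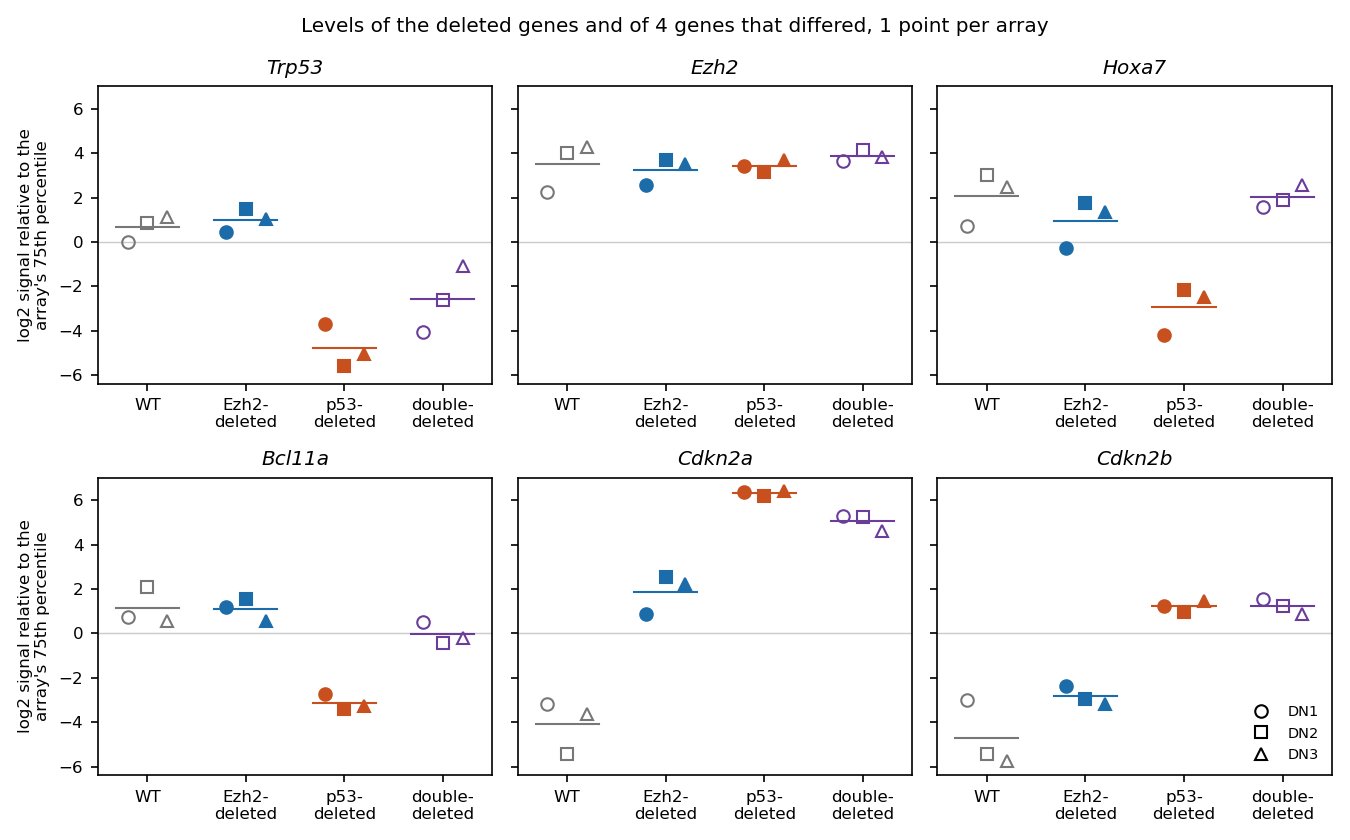
Levels of Trp53, Ezh2, Hoxa7, Bcl11a, Cdkn2a and Cdkn2b on the 12 non-leukemic arrays. The y axis is the log2 signal relative to the array's 75th percentile, each point is 1 array (circle DN1, square DN2, triangle DN3), filled points are the 6 arrays of 1 slide, open points lie on other slides, and bars are means of 3 stages. Hoxa7 and Bcl11a were low in p53-deleted cells, and Cdkn2a and Cdkn2b were high in p53-deleted and double-deleted cells.

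The INK4 locus ran the other way. Cdkn2a stood at 6.36, 6.18 and 6.41 in p53-deleted DN1, DN2 and DN3 samples and at 0.87, 2.54 and 2.24 in Ezh2-deleted cells. The 3 p53-deleted values lay close together and clear of the Ezh2-deleted ones. The difference was -4.43 ± 0.61 (limma, adjusted p = 0.00426; 0.0379 with the 6 arrays alone). Both genotypes were above the WT arrays, which averaged -4.08, and double-deleted cells averaged 5.04. Cdkn2b, the neighbouring gene for p15Ink4b, stood at 1.24, 0.99 and 1.46 in p53-deleted cells and at -2.36, -2.96 and -3.15 in Ezh2-deleted cells, a difference of -4.05 ± 0.48 (limma, adjusted p = 0.0023). Another Cdkn2a probe gave -4.94 and another Cdkn2b probe -3.38. Of the 10 tested genes nearest to Cdkn2a, Cdkn2b was lower, Zfp352 was higher (limma, adjusted p = 0.0378) and the other 8 were not called; the nearest on the far side, Mtap, differed by -0.34. A pair of unnamed regions of the array design on the same chromosome were lower too, at chr4:89048647-89066563 (at least 3.62-fold; limma, adjusted p = 0.00302) and chr4:89088538-89130181 (at least 4.03-fold; 0.00154), plus strand, on the design's build mm9. They were not well above background on any Ezh2-deleted array; no mm9 annotation was used here, so their gene context is not given. Among the 7 INK4 and CIP/KIP inhibitors, Cdkn1c was also lower in Ezh2-deleted cells (-1.18) and Cdkn1a was higher (1.43). Cdkn2c (-0.14), Cdkn2d (-0.26) and Cdkn1b (-0.86) were not called. The Cdkn1c call was lost without any of 3 arrays, Ezh2-deleted DN2, Ezh2-deleted DN3 or p53-deleted DN3 (adjusted p up to 0.084).

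Of 33 direct p53 targets tested, Cdkn1a, Phlda3 and Dcxr were higher in Ezh2-deleted cells and none was lower (9.1% called, against 6.2% of all features), and the median difference of the list was 0.10. Phlda3, an Akt inhibitor, stood at 1.33, 2.91 and 2.92 in Ezh2-deleted cells and at -0.87, -0.40 and -1.04 in p53-deleted cells, a difference of 3.15 ± 0.34 (limma, adjusted p = 0.00169). Dcxr, a sugar reductase, was higher by 3.18 ± 0.39 (limma, adjusted p = 0.00261). Cdkn1a, which encodes the p21 inhibitor of cyclin-dependent kinases, stood at 0.22, 2.71 and 3.17 against -1.62, 1.60 and 1.85, and its call was lost when any of 5 arrays was left out (adjusted p up to 0.112). Mdm2, Ccng1 and Bax, named here after their values were seen as long-known targets, differed by -0.05, 0.83 and 0.48 and were not called. Hipk2, a kinase that acts on p53, was higher by 1.68 (limma, adjusted p = 0.0035).

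Sat2, a polyamine acetyltransferase gene 2 tested genes from Trp53 on chromosome 11, was lower in Ezh2-deleted cells. In p53-deleted cells it stood at 1.95, 1.77 and 1.87, while no Ezh2-deleted array showed it well above background. The difference was at least 36.1-fold (limma, adjusted p = 0.000262). Double-deleted cells, which share the Trp53 deletion, averaged 1.23, and WT cells averaged -4.13. Of the 30 tested genes nearest to Trp53, Nlgn2 (1.41) was higher, Sat2 was lower and the other 28 were not called.

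The 15 genes with the largest excess in Ezh2-deleted cells came from several families. Lbhd2, a gene of chromosome 12, stood at -0.84, 1.24 and 4.36 at DN1, DN2 and DN3, and was undetected in p53-deleted cells (at least 35.9-fold higher). Mpped2 stood at 1.45, 1.09 and 0.73 and was undetected in p53-deleted cells too (at least 25.5-fold higher). Lrig3, a membrane protein that tunes growth factor receptors, differed by 6.08 ± 0.42. Yap1, the transcriptional coactivator of the Hippo pathway, stood at 0.85, 2.47 and 2.95 against -3.50, -3.78 and -2.01, a difference of 5.19 ± 0.52 (limma, adjusted p = 0.00135). Cd59a, a complement inhibitor, was higher by 5.02 ± 0.52, and Macroh2a3, a histone macroH2A gene, by at least 25.5-fold. Igf2bp3, an RNA-binding protein of the fetal LIN28 program, stood at -0.54, 0.39 and -0.16 in Ezh2-deleted cells and at -3.31, -5.79 and -5.40 in p53-deleted cells (4.73 ± 0.71; limma, adjusted p = 0.00625). WT cells averaged -4.78 for Igf2bp3 and double-deleted cells 0.32. Plag1, a growth-promoting zinc finger gene, was the other of 9 tested fetal program genes that was higher, by at least 3.16-fold. The called share of these 9 was 22.2%, against 6.2% of all features. Rab38, Smim5, 2610507I01Rik, Wdfy4, Susd4 and Lrrc4b completed the group with Trp53 and Emilin2. The Emilin2 groups touched, with an Ezh2-deleted DN3 value of -2.72 and a p53-deleted DN1 value of -2.77, and its call was lost without any of 5 arrays (adjusted p up to 0.178).

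The 15 genes with the largest deficit in Ezh2-deleted cells included the transcription factor genes Foxb1 and Lhx2 and the zinc finger gene Zfp503. In a list of 66 developmental factors known to be silenced by PRC2, 55 were too dim to test; of the other 11, 1 was lower and none was higher (9.1% called, against 6.2% of all features), with a median difference of 0.34. Foxb1, a forkhead factor, stood at 1.47, 1.17 and 1.60 in p53-deleted cells and was not well above background in Ezh2-deleted cells (at least 26.5-fold lower; limma, adjusted p = 0.000129). Lhx2, a LIM homeobox factor, stood at 0.24, -0.09 and 1.07 against readings not well above background (at least 13.2-fold lower). Zfp503 was at least 7.27-fold lower. Foxb1 and Lhx2 averaged 1.59 and 0.40 in double-deleted cells, near the p53-deleted level, and -4.64 and -4.44 in WT cells. Zfp503 averaged -4.15 in double-deleted cells, near the Ezh2-deleted level of -4.78, and -0.45 in p53-deleted cells. Lgals7, a galectin, was at least 42.6-fold lower. The guidance gene Slit3 was at least 5.49-fold lower and the laminin gene Lama4 at least 4.33-fold lower. The collagen gene Col1a2 stood at 4.63, 0.55 and -0.17 in p53-deleted cells and at -3.83, -2.75 and -3.23 in Ezh2-deleted cells. Gm525 stood at 9.13, 8.79 and 9.85 in p53-deleted cells against 0.05 to 5.88, a difference of -5.95 ± 1.07 whose adjusted p rose to 0.0514 without Ezh2-deleted DN2. Crnde, a long non-coding RNA, was at least 5.21-fold lower, with a call lost without any of 4 arrays (adjusted p up to 0.0882). Prcd, F2 and Upk1b completed the group with Sat2, Cdkn2a and Cdkn2b. The lower features also held 72 genome regions with no gene name. The largest was chr6:40699474-40719122 (mm9, plus strand), at 1.01, -0.40 and 1.16 in p53-deleted cells and not well above background in Ezh2-deleted cells, at least 14.9-fold lower.

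**Figure D2:**
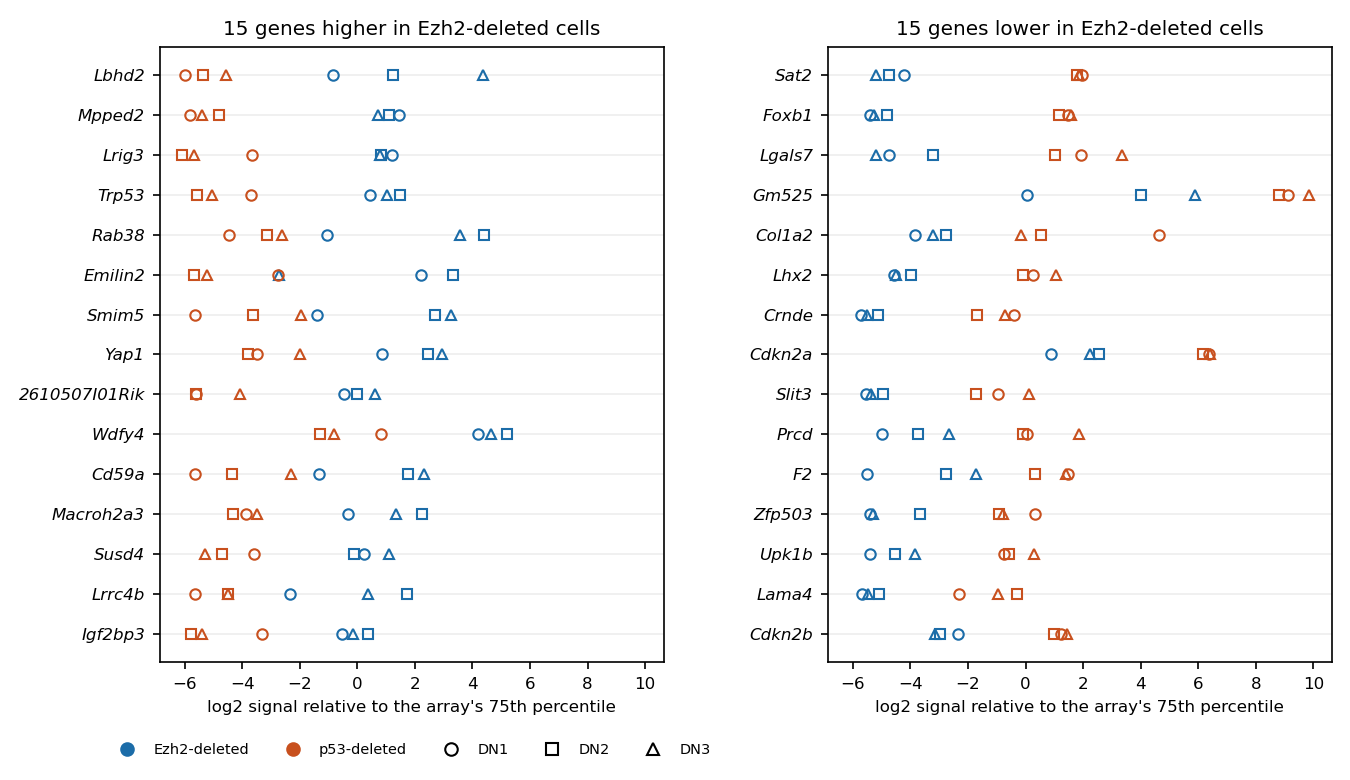
The 15 named genes with the largest excess and the 15 with the largest deficit in Ezh2-deleted cells. The x axis is the log2 signal relative to the array's 75th percentile, each symbol is 1 array, blue Ezh2-deleted and orange p53-deleted. The genotypes were separated for each gene shown except Emilin2, where the Ezh2-deleted DN3 and a p53-deleted value nearly coincide.

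The called genes were not spread evenly over the chromosomes. Chromosome 16 held 59 higher and 4 lower features of 452 tested (13.05% higher), and chromosome 12 held 51 higher and 6 lower of 525 (9.71% higher), against 3.59% higher over the other 17 autosomes. The shift reached far beyond the called genes. Among the 243 chromosome 16 genes with a mean level of at least 0, the median difference was 0.55 at DN1, 0.65 at DN2 and 1.08 at DN3, and 149 of them (61.3%) were higher at each stage. On chromosome 12 the medians were 0.32, 0.39 and 0.37 over 268 genes. The medians of the other 17 autosomes lay between -0.19 and 0.30 over the 3 stages, and 21.2% of their genes were higher at each stage. Against the median of the other autosomes, chromosome 16 stood 0.61, 0.43 and 0.90 higher at DN1, DN2 and DN3, and chromosome 12 stood 0.38, 0.18 and 0.19 higher.

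**Figure D3:**
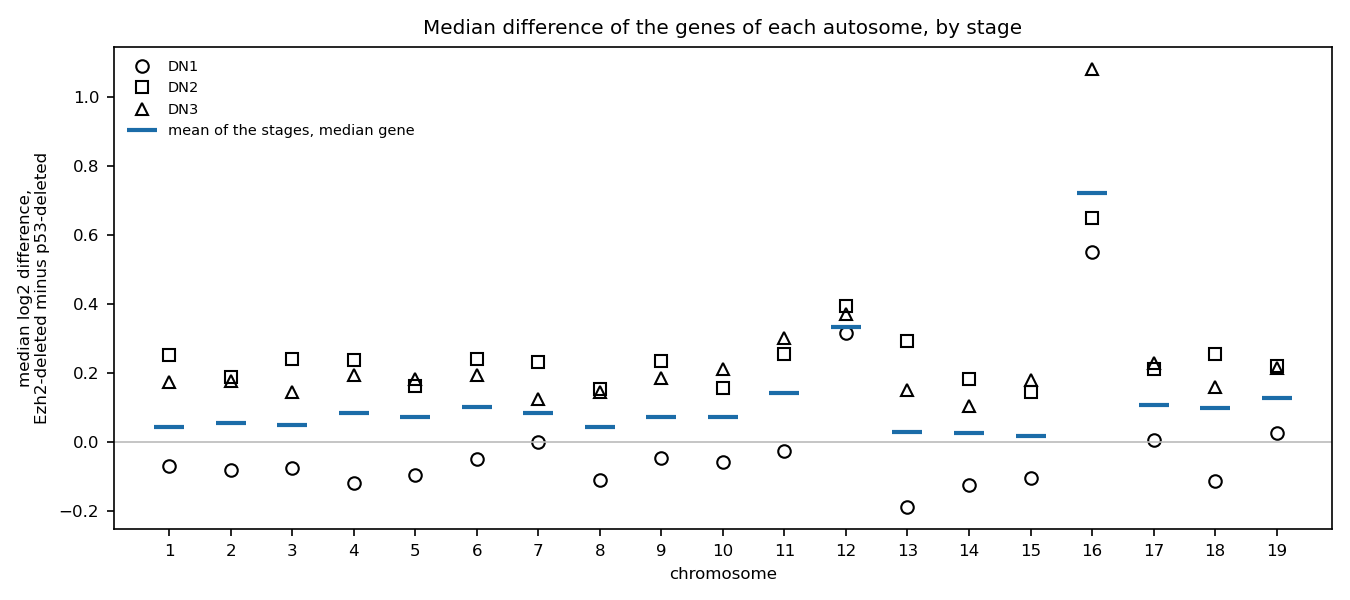
Median log2 difference (Ezh2-deleted minus p53-deleted) of the genes of each autosome with a mean level of at least 0. The x axis is the chromosome, open symbols are the 3 stages, and the blue bar is the median of the stage means. Chromosome 16 stands above the other autosomes at each stage, and chromosome 12 lies at 0.32 to 0.39.

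Along chromosome 16 the shift was present from end to end. In 9 windows of 25 or more consecutive genes, the window medians ran from 0.61 to 0.92. On chromosome 12 it lay in the second part of the gene order: the first 125 genes, Rab10 to Sgpp1, had a median of 0.06, and the last 143, Syne2 to Sp4, had a median of 0.57, with stage medians of 0.57, 0.61 and 0.59. Of those 143 genes, 91 (63.6%) were higher at each stage, 25 were called higher and none was called lower. None of 281 windows on the other 17 autosomes had a median above 0.5, and the highest was 0.47, on chromosome 11. The levels were then set against WT cells of the same stage, after subtracting the median over all genes. Chromosome 16 genes of p53-deleted cells stood at -0.64, -0.42 and -0.82 at DN1, DN2 and DN3, and those of Ezh2-deleted cells at -0.06, -0.01 and -0.01. Double-deleted cells stood at -0.57, -0.64 and -0.40 on chromosome 16. On the second part of chromosome 12, p53-deleted cells stood at -0.58, -0.46 and -0.42, Ezh2-deleted cells at -0.05, 0.08 and -0.02, and double-deleted cells at 0.01, 0.05 and -0.01. The low values were thus on the p53-deleted arrays for both chromosomes and on the double-deleted arrays for chromosome 16. The WT and double-deleted arrays lie on other slides, and the DNA content of the cells was not measured. The windows and the split of chromosome 12 were chosen after the values were seen.

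**Figure D4:**
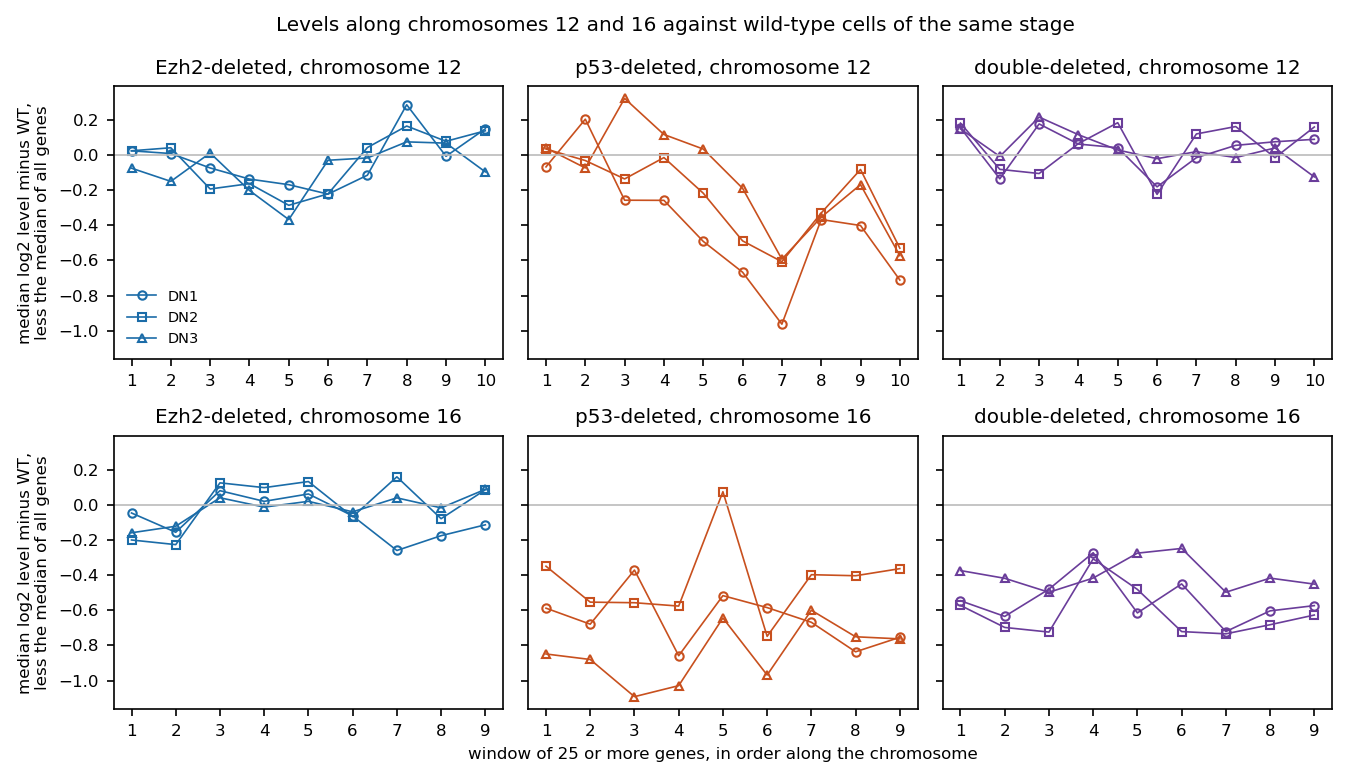
Levels along chromosomes 12 and 16 relative to WT cells of the same stage. The x axis counts windows of 25 or more genes in their order on the chromosome, the y axis is the median log2 level minus WT after subtracting the median over all genes, and symbols are stages. p53-deleted cells are below 0 on chromosome 16 (except the fifth DN2 window) and from the sixth window on for chromosome 12, and double-deleted cells are below 0 on chromosome 16.

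Genes of these chromosomes with known roles in thymocytes or in cell biology, chosen after their values were seen, were among those called. The median over all genes of the stretch was 0.57 on the second part of chromosome 12 and 0.72 on chromosome 16. Features called higher had medians of 1.56 on chromosome 12 and 1.29 on chromosome 16, so calling itself picks differences above these medians. Whether a gene moved beyond the shift of its stretch was not tested. Bcl11b, the zinc finger factor that commits cells to the T lineage and lies in the second part of chromosome 12, stood at 5.48, 5.71 and 5.74 in Ezh2-deleted cells and at 4.37, 4.73 and 4.70 in p53-deleted cells, a difference of 1.04 ± 0.21 (limma, adjusted p = 0.0224). It was the 1 gene called among 21 T cell commitment factors (4.8%, against 6.2% of all features). Its call was lost without any of the 3 Ezh2-deleted arrays or p53-deleted DN3 (adjusted p up to 0.103). Dicer1, which makes microRNAs, and Papola, which adds poly(A) tails, were higher by 1.23 and 1.04 on chromosome 12. On chromosome 16, Prkdc, the DNA-dependent protein kinase needed to join receptor gene ends, was higher by 1.14, the kinase gene Gsk3b by 1.03 and the histone chaperone gene Hira by 1.02. Prkdc was the 1 gene called among 15 CD3, pre-TCR and recombination genes (6.7%, near the share of all features). The Prkdc call was lost without any of 4 arrays (limma, adjusted p up to 0.0992). Other genes there moved further: Alcam was higher by 2.52, Fstl1 at least 5.06-fold and Ripk4 at least 4.32-fold, while Upk1b was at least 7.85-fold and Csta2 at least 10.1-fold lower. With both chromosomes left out of the adjustment, 452 features were higher and 265 lower.

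Cd4, Cd8b1, Cd28, Cd5 and Cd8a, surface genes of T cells, were lower in Ezh2-deleted cells. They were the 5 called lower of 33 coreceptor and TCR signalling genes, with 1 higher and 27 not called (18.2% called, against 6.2% of all features). The median difference of these 33 was -0.32, with 0.29 at DN1, -0.81 at DN2 and -0.17 at DN3. Of 14 double-positive thymocyte markers tested, 3 were lower and none was higher (21.4% called). Cd4, Cd8a and Cd8b1 also mark double-positive thymocytes, so this count is not independent of that of the coreceptor list. The overall median of the 14 was -0.0008, and their stage medians were -0.45, -0.61 and -0.004. Cd4 stood at 1.70, 1.09 and 1.23 at DN1, DN2 and DN3 in Ezh2-deleted cells and at 3.71, 3.12 and 2.68 in p53-deleted cells, with no overlap (-1.83 ± 0.21; limma, adjusted p = 0.00212). Cd8b1 stood at -0.68, -3.33 and -1.39 against 1.99, 0.93 and 0.80 (-3.04 ± 0.36; limma, adjusted p = 0.0022). Cd28, the costimulatory receptor, was lower (-1.53 ± 0.22), as were Cd5, an inhibitor of receptor signalling (-1.60), and Cd8a, whose other tested probe differed by 0.46. Syk, the kinase used in place of Zap70 by early thymocytes and B cells, was higher by 1.62. The calls of Cd5, Cd8a and Syk were each lost without any of 4 or 5 arrays (adjusted p up to 0.171). In these bulk samples fewer cells of a type and less RNA per cell cannot be told apart. The summed linear level of 4 double-positive thymocyte markers was 14.2, 3.1 and 3.6 in Ezh2-deleted cells and 19.2, 19.1 and 9.2 in p53-deleted cells, and its part in the Cd4 and Cd8 differences was not tested.

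Of 21 Notch receptors and effectors tested 9.5% were called, and of 29 cytokine receptor and JAK-STAT genes 3.4%, against 6.2% of all features. Notch3, a receptor that rises as thymocytes pass to DN3, stood at 1.17, 4.31 and 5.54 in Ezh2-deleted cells and at -0.27, 0.84 and 3.27 in p53-deleted cells (2.39 ± 0.47; limma, adjusted p = 0.0191). Hey1, a Notch effector, was higher by 2.06, and the other 19 Notch genes tested were not called. Il2ra was higher by 1.92 and was the 1 gene called among 29 cytokine receptor and JAK-STAT genes. Itga4, the integrin subunit used in homing, was higher by 1.80 ± 0.28, and Cxcr4, a chemokine receptor, was lower (-0.91). The calls of Notch3, Hey1, Il2ra and Cxcr4 were lost without any of 4 or 5 arrays (adjusted p up to 0.138). Lists of chromatin genes gave 1 call each. Tet1, which oxidises methylated cytosine, was higher by 1.64 ± 0.20 (limma, adjusted p = 0.0023), 1 of 10 DNA methyltransferase and TET genes. The Polycomb subunit gene Bmi1 was higher by 1.25 and Epop, a PRC2 accessory subunit gene, by 0.79. Bmi1 and Epop lost their calls without any of 4 or 5 arrays (adjusted p up to 0.195), and the other 17 PRC1 and 11 PRC2 genes tested were not called. The called shares of 5.6% of PRC1 and 8.3% of PRC2 genes were near the 6.2% of all features.

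Genes that mark other blood lineages were also sought. Of 21 cytotoxic and effector products tested 9.5% were called, and of 18 NK and innate lymphoid factors 5.6%, against 6.2% of all features. The share was 5.0% of 20 B cell markers and 11.1% of 18 granulocyte and macrophage markers, and none of 25 NK receptors was called. List medians were 0.52 for cytotoxic products, -0.28 for NK factors, -0.22 for NK receptors and 0.76 for B cell markers. Nkg7, a cytotoxic granule gene, stood at 8.54, 6.80 and 5.06 in Ezh2-deleted cells and at 6.96, 3.59 and 1.44 in p53-deleted cells (2.80 ± 0.56; limma, adjusted p = 0.0201), and the chemokine gene Ccl4 was higher by 2.68. Zeb2, a factor of NK and myeloid maturation, stood at -0.10, 0.37 and 0.22 against -3.04, -2.20 and -3.07, a difference of 2.93 ± 0.37 (limma, adjusted p = 0.0027; 0.0362 with the 6 arrays alone). Cd79b, a B cell receptor subunit also made in early T cells, was higher by 2.66 ± 0.30 (limma, adjusted p = 0.00194), while the B cell marker Pax5 was below background on all 6 arrays. The lysozyme genes Lyz1 and Lyz2, near-identical copies whose probes may share signal, were at least 3.53-fold and 4.28-fold higher. Of 7 granulocyte and macrophage markers, 7, 5 and 4 were above background in Ezh2-deleted DN1, DN2 and DN3 cells and 4, 3 and 3 in p53-deleted cells, with summed linear levels of 100.9, 30.6 and 19.7 against 18.1, 16.9 and 24.5. The part of such cells in the lysozyme difference was not tested. Among epithelial and stromal genes, Krt18 (2.63), Epcam (2.91), Cdh1 (E-cadherin) and Pdgfrb (2.10) were higher and Col1a2 and Acta2 were lower. The 13 tested had a median difference of 0.33 (46.2% called, against 6.2% of all features), and 15 more genes of the list were too dim to test. Krt8, the partner keratin of Krt18, was below background on all 6 arrays. The calls of Nkg7, Ccl4, Lyz2, Krt18, Cdh1, Pdgfrb and Acta2 were each lost without at least 1 array (adjusted p up to 0.213).

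The difference between the genotypes was not the same at each stage. Over all 14482 features the stage differences correlated at r = 0.19 between DN1 and DN2, 0.44 between DN1 and DN3 and 0.58 between DN2 and DN3, a description across features of pairs of arrays. Differences over 1 unit were seen in 21.4% of features at DN1, 26.2% at DN2 and 19.9% at DN3. Several lists pointed one way at DN1 and the other way at DN2, and they are given in the next paragraph. Of 20 gamma delta T and type 17 genes tested, 2 were called higher and 1 lower. Of 18 homing and chemokine receptors, 1 was called higher and 1 lower. Both called shares were above the 6.2% of all features, and those of the other lists in that paragraph were below it. Each stage value below compares 1 array with 1 array and has no test.

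Thymic homing and chemokine receptors had a median difference of 0.89 at DN1, -2.57 at DN2 and -0.89 at DN3. Immediate-early genes, which respond within minutes to signals and to handling of cells, had medians of 0.48, -2.52 and -1.08, and none of the 33 was called. Their orphan receptor gene Nr4a1 stood at 8.11, 4.31 and 5.56 in Ezh2-deleted DN1, DN2 and DN3 cells and at 7.90, 8.96 and 8.10 in p53-deleted cells. Gamma delta T and type 17 genes had medians of 2.61, -1.21 and 0.24. MHC class II presentation genes had medians of 1.89, -1.58 and -0.53. Cd74, the class II chaperone, stood at 6.42, 3.64 and -2.61 in Ezh2-deleted cells and at 3.15, 5.10 and -0.99 in p53-deleted cells. NK receptors had medians of 1.11, -1.36 and -0.07, and none of the 25 was called. Cell cycle genes ran the opposite way, with medians of -0.82 at DN1, 0.94 at DN2 and -0.13 at DN3, as did clustered histone genes (-0.85, 1.17 and -0.07). Of 53 cell cycle genes, Cdc25b (-1.47) and the D cyclin Ccnd1 (-2.46) were lower, both with calls lost without any of 4 or 5 arrays (adjusted p up to 0.164).

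Marker sums of other cell types also differed between stages. The summed linear level of 4 NK markers was 62.8, 0.8 and 0.1 in Ezh2-deleted DN1, DN2 and DN3 cells and 28.8, 2.6 and 0.2 in p53-deleted cells. It was higher in Ezh2-deleted cells at DN1 and lower at DN2, as were the NK receptor medians. That of 4 B cell markers was 9.7, 0.2 and 0.1 against 0.9, 0.1 and 0.3. None of these B cell markers was well above background at DN2 or DN3 in either genotype, so those sums show no direction. The T lineage sum stayed between 882 and 1375 on the 6 arrays. The stage genes differed at DN2 as well: Ptcra, the pre-T cell receptor alpha chain, stood at 5.30 in Ezh2-deleted and 1.56 in p53-deleted DN2 cells, and Cd44 at 1.88 and 3.47. The part of these in the stage medians was not tested. Single genes with the widest spread of stage differences included Mpzl2, an adhesion gene, at -1.17, 5.94 and 5.98 in Ezh2-deleted cells and 3.17, 3.45 and 5.08 in p53-deleted cells. Il18r1, the receptor for IL-18, stood at 4.79, 2.31 and -4.50 against 3.60, 5.61 and 1.11. Acox2, Il6ra, Ttll9 and Vwce were the other 4.

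**Figure D5:**
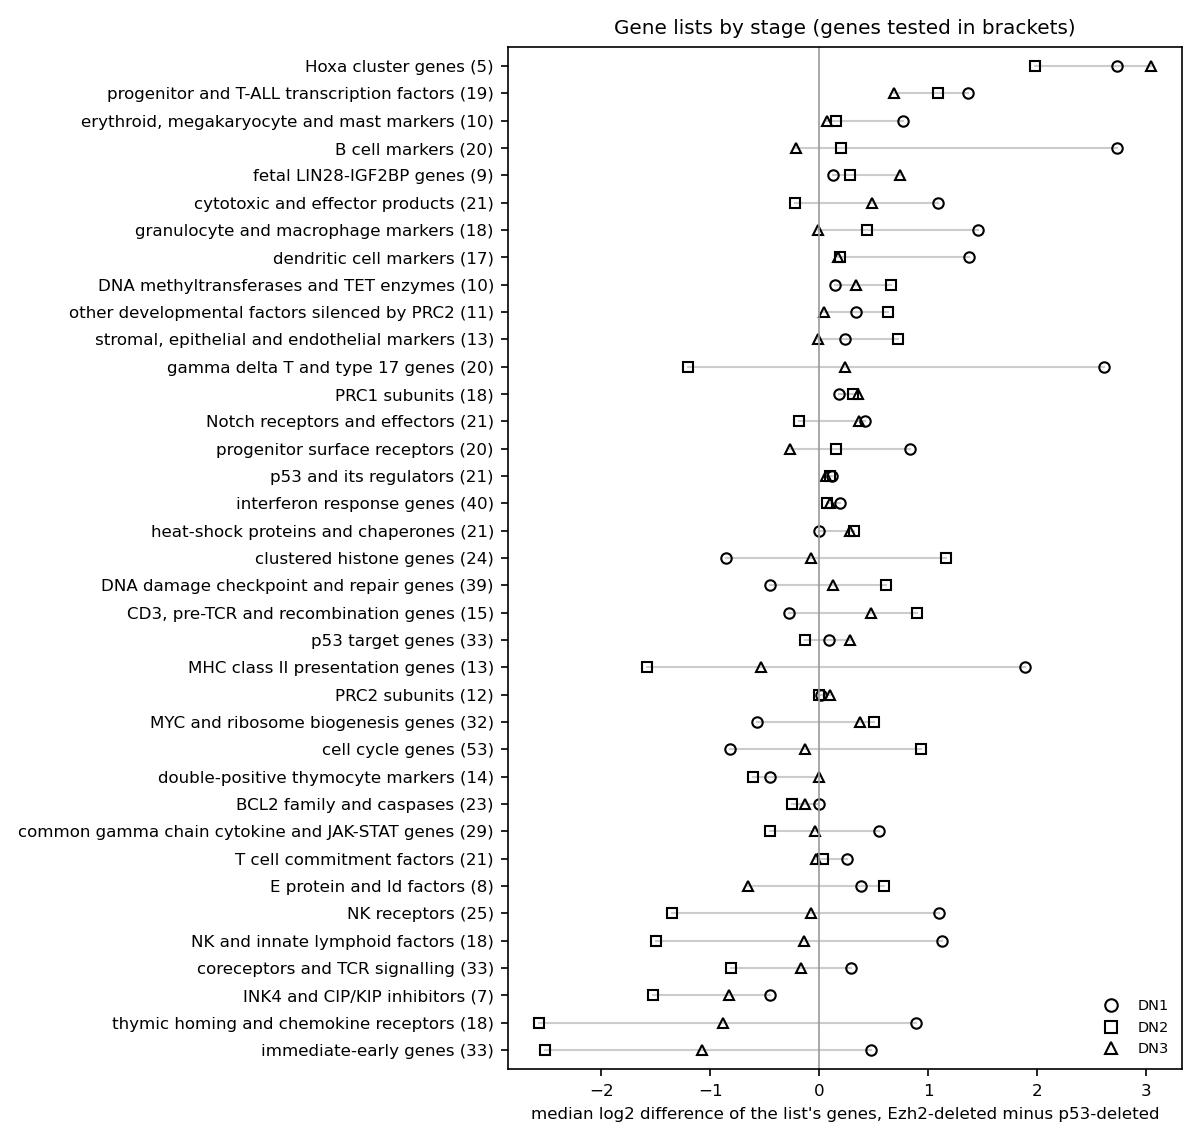
Median log2 difference (Ezh2-deleted minus p53-deleted) of the tested genes of each list, by stage (circle DN1, square DN2, triangle DN3); lists with at least 5 tested genes are shown, ordered by the median of the stage means. Hoxa genes lie to the right at each stage, and homing receptors, immediate-early genes, NK receptors and MHC class II genes lie to the right at DN1 and to the left at DN2.

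Lists for heat-shock proteins (21 tested), interferon response genes (40), MYC and ribosome biogenesis genes (32), clustered histones (24), DNA damage and repair genes (39) and MHC class II genes (13) held no called gene. Their overall medians lay between 0.03 and 0.13. The interferon-induced Ly6e ran from 8.43 to 9.18 in Ezh2-deleted cells and from 8.44 to 8.54 in p53-deleted cells, and the nucleolar gene Npm1 stood at 6.47, 7.65 and 7.95 against 7.25, 6.95 and 7.20. The 23 genes of the BCL2 family and caspases tested gave 1 call (4.3%, against 6.2% of all features). That call, Bok (-3.71), was lost without any of 5 arrays (limma, adjusted p up to 0.177).

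Set against the other genotypes, the 2 directions differed in where WT cells lay. Of the 231 lower genes, WT levels were nearer to Ezh2-deleted cells in 184 and nearer to p53-deleted cells in 47 (20.3%), where 52.1% of all named genes tested were nearer to p53-deleted cells. Of the 556 higher genes, WT levels were nearer to p53-deleted cells in 293 (52.7%) and nearer to Ezh2-deleted cells in 263. Double-deleted levels were nearer to Ezh2-deleted cells in 331 of the higher and 137 of the lower genes, with 40.5% and 40.7% nearer to p53-deleted cells, where 53.4% of all named genes tested were. The genes were picked by their difference between Ezh2-deleted and p53-deleted cells, so these counts are a description and not a test. WT signal was not above background in 67 of the lower and 59 of the higher genes. No Ezh2-deleted array was above background in 86 of the lower genes, and no p53-deleted array in 112 of the higher genes. Where both levels are dim, nearness to WT only says that both lie at background. The WT and double-deleted arrays lie on other slides, and slide and genotype cannot be told apart there.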

How the data were processed

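Total RNA of sorted thymocytes was amplified, labelled with Cy3 and hybridised to 1-colour arrays, per the labels' protocols. Per the file headers, the authors read the scans with Agilent Feature Extraction 10.7.1.1, which gave each spot a processed intensity, corrected for background, on a probe design annotated on mm9. The deposited value table held the same intensity divided by 1 constant per array. Here log2 of the deposited processed intensity minus log2 of the array's 75th percentile was used. Spots of a probe were averaged, outliers left out. Of 55681 probes, 42120 were autosomal, named through RefSeq symbols (GRCm38.p6) or by region; 1723 on chromosomes X and Y and 11837 with no chromosome known were left out. Features had to be well above background on 2 or more of the 6 arrays, 1 probe per gene (the highest mean). limma 3.58.1 (lmFit, eBayes; R 4.3.3) fitted stage and genotype to the 12 non-leukemic arrays; Benjamini-Hochberg adjustment ran over all features, and a feature was called at an adjusted p under 0.05. The other genotypes add no values to the difference, but their arrays enter the spread behind its SE and p-value and add degrees of freedom. The fit was tested on simulated data. The number of arrays limits the precision. Chromosome medians used named genes with a mean log2 level of at least 0 over the 12 arrays.

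The genes named are Trp53, Ezh2, Hoxa7, Bcl11a and Cdkn2a; the 15 called genes with the largest difference each way, of 1 sign at the 3 stages and above background on all 3 arrays of the higher genotype; called members of 38 gene lists, or bright members of lists with none; the 6 genes with the widest range of stage differences; and sex-linked genes. Others are said to be chosen after their values were seen. The arrays compared and the lists were chosen with earlier results of these data known. normexp background correction, run as an alternative, used the median spot signal in place of the planned mean signal. Some genes that the rule names are not reported here.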

Additional observations from a re-analysis of the deposited data

Results flagged for a closer look

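Genes outside the test carried signal in one genotype. Xist was 7.45 higher on the log2 scale in Ezh2-deleted than in p53-deleted cells, with Ezh2-deleted signal above background and p53-deleted signal not. Of the Y-linked genes, Ddx3y differed by -6.26, Eif2s3y by -7.44 and Uty by -3.39, with signal above background in p53-deleted cells and not in Ezh2-deleted cells.

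Lists of at least 5 tested genes with a stage median above 0.5 and another below -0.5 are given by their range over the 3 stages; these differences between stages were not tested, since each rests on 1 array per genotype. The range was 3.82 for gamma delta T and type 17 genes, 3.47 for MHC class II genes, 3.46 for homing and chemokine receptors, 2.62 for NK and innate lymphoid factors and 2.46 for NK receptors. It was 2.02 for clustered histones, 1.76 for cell cycle genes and 1.25 for E protein and Id factors. Immediate-early genes, at 0.48, -2.52 and -1.08, fell just short of the limit at DN1.

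Single genes were flagged in the same way, also untested. The stage differences spanned 7.32 for Acox2, 6.83 for Mpzl2, 6.81 for Il18r1, 6.65 for Il6ra, 6.59 for Ttll9 and 6.51 for Vwce.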

How the results depend on the processing

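Of 595 higher and 303 lower features, counts fell most where fewer arrays set the spread. With the 6 arrays of the slide they were 75 and 28 with stage in the fit and 59 and 32 without it. They were 188 and 100 without stage DN2, 63 and 28 without stage DN3, and 237 and 103 with normexp background correction. Leaving out 1 array gave 214 to 692 higher and 104 to 415 lower. With the slide as a block, another percentile, quantile normalization, no filter, a stricter filter, probe means, an intensity trend, the authors' value table, without stage DN1, or without chromosomes 12 and 16 (an alternative chosen after seeing the data), both counts stayed within 1.5 times. No named called gene changed sign under these alternatives; the difference of Ezh2, not called, ran from -0.49 to 0.21 without 1 array and was 0.20 without stage DN1. Of 79 such genes, 44 kept their call without each array in turn, 25 were called with the 6 arrays, 49 with normexp and 18 without stage DN3. Relative to the other autosomes, chromosome 16 stood 0.65 higher (0.53 to 0.78 over 20 alternatives) and chromosome 12 stood 0.26 higher (0.18 to 0.30). No paired analysis by replicate number was possible because each group holds 1 array; stage pairs the arrays in the fit. CG content was not tested between called and tested genes, and no conclusion on it is drawn. A promoter was in the table for 77.0% of higher, 76.6% of lower and 79.8% of all named genes tested. Dim signal limits bounds: where a genotype is not above background, only a lower bound on the fold is known.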

Other observations

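Id3, an inhibitor of E proteins that rises with T cell receptor signalling, stood at 4.11, 2.39 and 3.32 in Ezh2-deleted DN1, DN2 and DN3 cells and at 5.14, 4.08 and 4.91 in p53-deleted cells, a difference of -1.44 on the log2 scale (limma, adjusted p = 0.0216). Its call was lost without any of 3 arrays, Ezh2-deleted DN2, Ezh2-deleted DN3 or p53-deleted DN3 (adjusted p up to 0.112). 5830411N06Rik, counted among gamma delta T genes, was higher by 2.77, and Prom1, a progenitor surface antigen, by 3.60. The mast cell tryptase gene Tpsb2 differed by -1.32. The calls of these 3 were each lost without any of 5 arrays (adjusted p up to 0.203).

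Of the 30 tested genes nearest to Ezh2 on chromosome 6, Mgam was lower (-3.43) and Repin1 higher (2.02), and the other 28 were not called. None of the 10 nearest to Bcl11a was called. Near Hoxa7, Hoxa3 and Snx10 (1.40) were higher.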
